A study of Mus musculus with 6 samples.

Results

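Open chromatin was compared between mouse bone marrow-derived macrophages (BMDMs) given IL-4 with latrunculin A (LatA), a drug that takes the actin cytoskeleton apart, and BMDMs given IL-4 with its vehicle, DMSO. The question is whether the state of the cytoskeleton bears on which DNA sites are accessible. ATAC-seq was used, an assay whose transposase inserts sequencing adapters into open DNA, so that reads pile up over accessible sites. The comparison covers 33476 of the 578591 sites in the table (5.79%), namely the autosomal sites whose mean signal over all 6 libraries was at least 3.2. Signal is the reads in a site relative to the library total (CPM), with TMM scaling, which trims extreme sites before it sets the scale of a library. There was 1 library with LatA + IL-4 and 1 with DMSO + IL-4. Every ratio below therefore compares 2 libraries, has no replicate check, and carries an interval for counting error only.

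All 6 libraries came from wild-type C57BL/6 BMDMs (C57BL/6J in the growth protocol), which are macrophages grown from bone marrow in medium conditioned by L929 cells. Beside LatA + IL-4 and its control DMSO + IL-4, there was 1 library each of MCSF + IL-4, of IL-4 without vehicle, of DMSO without IL-4, and of cells left Untreated. IL-4 was used at 20 ng/ml for 24 h, latrunculin A at 1 µM and MCSF (also named CSF1) at 100 ng/ml. How long the cells were exposed to DMSO, latrunculin A or MCSF, and whether the libraries share a mouse, is not given for these libraries in the sources used here. Positions are in the mm9 build, and gene names, sequence and macrophage marker loci at these positions are not analysed here.

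Latrunculin A binds actin monomers and keeps them from joining filaments, so the actin cytoskeleton comes apart. Monomeric actin also holds MRTF, a partner of the transcription factor SRF, out of the nucleus, which is one known link from actin to transcription. IL-4 acts through its receptor and the transcription factor STAT6 and drives macrophages to the alternatively activated state. CSF1, the growth and survival factor of macrophages, signals through a receptor tyrosine kinase and reshapes the cytoskeleton as well.

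Reads in sites ranged from 12387332 in DMSO + IL-4, the control of the comparison and the shallowest library, to 19889902 in Untreated. LatA + IL-4 had 14897964. A site at the minimum mean signal held about 46.8 reads in LatA + IL-4 and 39.9 in DMSO + IL-4. The sites compared held 52.6% of the reads in sites with latrunculin A and 52.2% with vehicle. Their median width was 745 bp, with a range of 150 to 5787 bp. The site just inside the minimum had a mean signal of 3.20001, with 1.98 in LatA + IL-4 and 3.13 in DMSO + IL-4. The site just outside it had a mean signal of 3.19999, with 5.33 and 2.00.

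Most sites had a higher signal with latrunculin A than with vehicle before any trend was removed. Signal was higher in LatA + IL-4 at 27576 sites (82.4%), and the median log2 ratio was 0.54 (95% order-statistic interval 0.54 to 0.55). The other pairs of libraries were shifted the same way, with a median log2 ratio of 0.33 for DMSO against Untreated and 0.55 for MCSF + IL-4 against IL-4. It also changed with signal. The median log2 ratio was 0.51 at mean signals of 3.2 to 6.4, 0.59 at 6.4 to 20, 0.41 at 20 to 200 and -0.50 at 200 and over. A smooth (lowess) curve through the ratios ran from a highest value of 0.61 down to -1.02 at the site with the most signal. That site's own log2 ratio was -0.60, so the curve ran below it at this end. The curve was subtracted before sites were ranked.

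**Figure D1:**
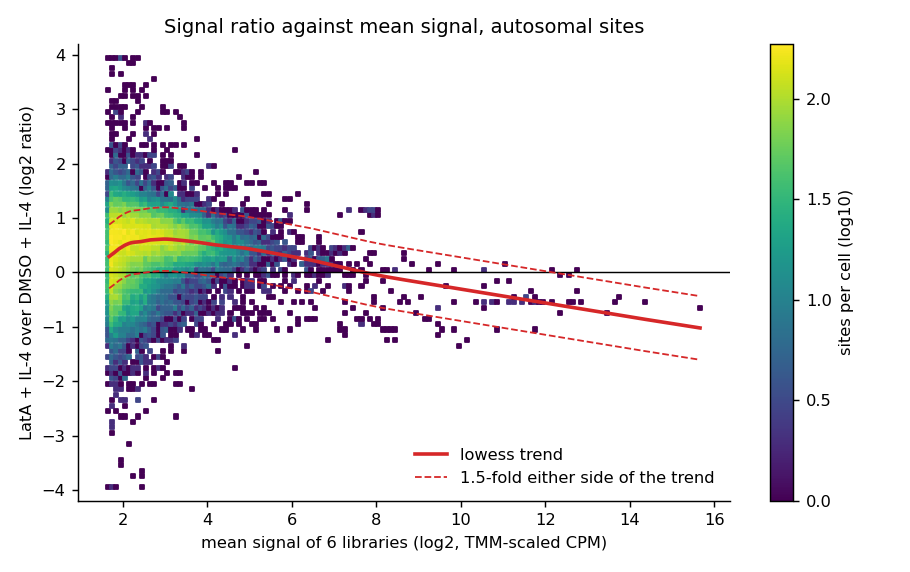
The log2 ratio of LatA + IL-4 over DMSO + IL-4 (y axis, ratios beyond 4 drawn at 4) is plotted against the log2 mean signal of all 6 libraries (x axis), coloured by the number of sites per cell on a log10 scale, with the lowess trend and 1.5-fold limits either side of it. Most sites lie above 0 at low and middle signal, and the trend falls below 0 at the sites with the most signal.

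With the trend removed, 2983 sites (8.91%) were at least 1.5-fold higher with latrunculin A and 4851 (14.5%) were at least 1.5-fold lower. These are shares of the same 33476 sites. In DMSO against Untreated, a pair that shares no library with this one, 3.56% of the sites were higher and 5.87% lower under the same processing. In MCSF + IL-4 against IL-4 the shares were 10.9% and 15.7%. The SD of the log2 ratios was 0.57 for latrunculin A and 0.40 for DMSO against Untreated. Without removal of the trend, 15361 sites (45.9%) passed 1.5-fold upward and 1755 (5.24%) downward, so the split between higher and lower sites rests on that step. Of all calls, 89.7% were upward without the removal and 38.1% with it.

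The trend was positive at nearly all sites, so a site above it by 1.5-fold is almost bound to pass 1.5-fold in the signal itself, and the counts that follow are no support for the calls. Of the 2983 higher sites, 2980 also passed 1.5-fold in the signal itself. Of the 4851 lower sites, 4814 (99.2%) had less signal with latrunculin A than with vehicle, and 1743 (35.9%) were at least 1.5-fold lower in the signal itself. The remaining lower sites were below the trend by 1.5-fold but below the control by less than that, or not at all. At a threshold of 2-fold, 666 sites (1.99%) were higher and 1991 (5.95%) lower.

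Sites lower with latrunculin A were wider and thinner in signal than the others. Their median width was 1151 bp and their median density 3.81 signal units per kb of site, against 723 bp and 8.78 for the sites within 1.5-fold. Higher sites had a median width of 665 bp and a median density of 6.75. Among sites of 1500 bp or more, 56.0% (95% exact interval 53.9 to 58.1) were lower and 4.32% (3.51 to 5.27) higher. Among sites of 300 to under 600 bp, 6.96% (6.46 to 7.49) were lower and 11.9% (11.3 to 12.6) higher. The narrowest class did not follow this order, as 32.2% (28.7 to 35.9) of the 668 sites under 300 bp were lower and 8.53% (6.53 to 10.9) higher. The shares also depended on the trend. With the trend taken on signal per kb, 17.3% of the sites of 1500 bp or more were lower and 10.8% higher.

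Density separated the sites more sharply than width, but they are not separate traits. Density is mean signal divided by width, so with a mean signal of at least 3.2 only wide sites can have a low density. Sites under 4 units per kb had a median width of 1299 bp. Below 3 units per kb, 62.2% (60.3 to 64.1) of 2534 sites were lower and 2.01% (1.5 to 2.64) higher. At 6 to 12 units per kb, 6.38% (6.00 to 6.78) of 15195 sites were lower and 9.87% (9.4 to 10.4) higher. The 4970 sites under 4 units per kb, called sparse here, made up 14.8% of the sites but 52.3% of the lower calls and 8.98% of the higher calls. Their median log2 ratio in the signal itself was -0.16, against 0.60 at the 28506 denser sites. The same division was seen in pairs without latrunculin A. Sparse sites were lower in 48.2% for MCSF + IL-4 against IL-4 and in 18.4% for DMSO against Untreated, where denser sites were lower in 10.0% and 3.69%. The part of density in the latrunculin A ratios was not tested.

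**Figure D2:**
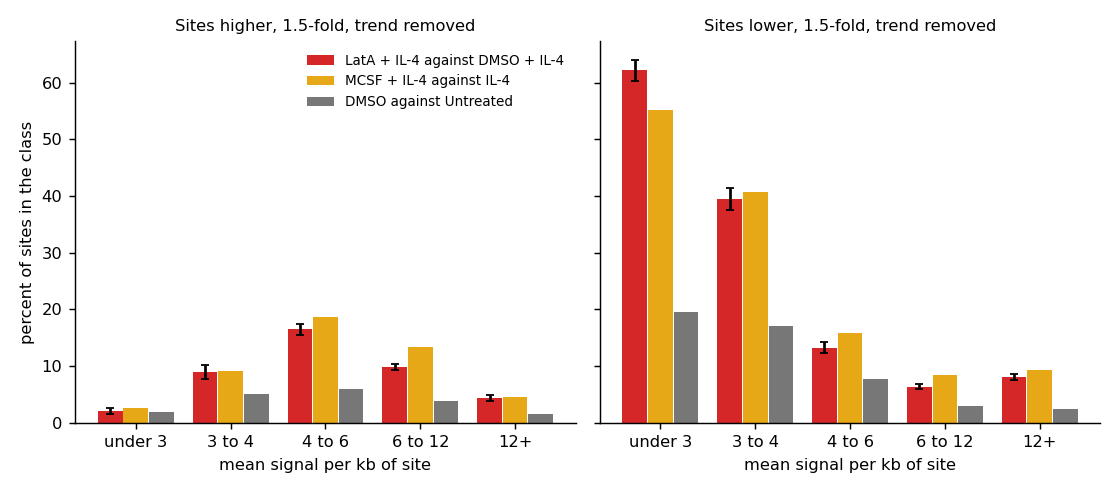
Bars give the percent of sites higher (left) and lower (right) by at least 1.5-fold with the trend removed, by class of mean signal per kb of site, for 3 pairs of libraries; error bars, drawn for latrunculin A only, are 95% exact binomial intervals. The share of lower sites falls from 62.2% under 3 units per kb to 6.38% at 6 to 12 in the latrunculin A pair, and the other pairs fall with it.

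The peak list of each library gave a related picture. A site overlapped a called peak in both libraries in 32305 cases (96.5% of the sites), and of these 8.80% were higher and 12.8% lower with latrunculin A. A peak was called only in LatA + IL-4 at 414 sites, of which 33.3% (28.8 to 38.1) were higher and 10.1% (7.41 to 13.5) lower. A peak was called only in DMSO + IL-4 at 607 sites, of which 93.7% (91.5 to 95.5) were lower and 0.165% higher. These 607 sites were mostly sparse (74.5%), with a median width of 1307 bp. The lists were called on the same reads as the signal and are not a separate measurement. At sites with a peak in both, the fold enrichment of the peak over its local background was a median of 12.8 with latrunculin A and 10.2 with vehicle. It was higher with latrunculin A at 73.5% of these sites, at 96.8% of the higher ones and at 30.3% of the lower ones.

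The sites with the most signal behaved differently from the rest. There were 112 sites with a mean signal of 200 or more, with a median width of 361 bp. They held 20.2% of the reads in sites in LatA + IL-4 and 28.4% in DMSO + IL-4. Their share was 22.4% in MCSF + IL-4, 29.3% in IL-4, 31.8% in Untreated and 32.3% in DMSO. LatA + IL-4 thus had the lowest share of the 6 libraries and MCSF + IL-4 the next. In the signal itself, 34 of the 112 were at least 1.5-fold lower with latrunculin A, 64 lay within 1.5-fold and 14 were at least 1.5-fold higher. All 14 lie in 2 runs of sites on chromosome 6, described below, and are not separate observations. Many of the other sites lie in a single stretch of chromosome 9, from 2999995 to 3038294. Their log2 ratios were all between -0.68 and -0.45, and they are not taken as separate observations either. In MCSF + IL-4 against IL-4, 21 were at least 1.5-fold lower, and in DMSO against Untreated none was. With the trend removed, which at this end is itself drawn by these sites, 17 were higher and 22 lower. The signal of the site at chromosome 4, 79650367 to 79650598, was 498 in LatA + IL-4, 582 in MCSF + IL-4 and between 1039 and 1254 in the other 4 libraries.

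The most extreme ratios were ranked by these 2 libraries, among sites whose mean over all 6 passed the minimum, so the ranking itself favours sites where 1 of the 2 is near 0. What follows describes the sites picked. At the 12 with the highest ratios, DMSO + IL-4 had 0 to 5 reads at these sites and 3 or fewer at 8 of them, while LatA + IL-4 had 49 to 226. DMSO + IL-4 lay outside the range of the other 5 libraries at 10 of the 12, and LatA + IL-4 at 4. Against the IL-4 library without vehicle, 3 of the 12 were still at least 1.5-fold higher with latrunculin A. No site of the 12 had a called peak in both libraries.

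The leading site, at chromosome 10, 93237431 to 93238348, is an example. Its signal was 7.38 in LatA + IL-4 (108 reads), 0 in DMSO + IL-4, 4.02 in MCSF + IL-4, 4.32 in IL-4, 2.97 in DMSO and 5.08 in Untreated. By the exact counting interval, signal was at least 24.5-fold higher with latrunculin A, and the fold against a floor of 3 reads in the control was 30.7. Only the control was far from the others. At chromosome 12, 118245424 to 118246690, LatA + IL-4 had a signal of 5.12, inside the range of 2.33 to 5.18 of the other libraries except the control, which was at 0. At chromosome 15, 90046428 to 90047330, both compared libraries stood apart, with a signal of 15.4 in LatA + IL-4, 0.401 in DMSO + IL-4 and 2.20 to 4.96 in the other 4. That ratio was 38.5 (95% exact interval 16.3 to 120).

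At the 12 sites with the lowest ratios, which were picked for a low value in the latrunculin A library, LatA + IL-4 had 0 to 12 reads at these sites and DMSO + IL-4 had 31 to 126. LatA + IL-4 lay below the other 5 libraries at 11 of the 12. All 12 were also at least 1.5-fold lower against the IL-4 library, a comparison that uses the same latrunculin A values. At chromosome 19, 7197857 to 7199343, the signal was 0.0683 (1 read) in LatA + IL-4, 9.22 in DMSO + IL-4, 7.81 in MCSF + IL-4, 8.39 in IL-4, 6.53 in DMSO and 1.49 in Untreated. With 1 read the ratio of control to latrunculin A was 135, with an interval of 23.7 to 5377. At chromosome 1, 134245578 to 134246416, the signal was 0 in LatA + IL-4, 4.09 in DMSO + IL-4, 6.22 in MCSF + IL-4, 5.15 in IL-4, 1.81 in DMSO and 1.96 in Untreated. By the exact counting interval LatA + IL-4 was at least 15.6-fold lower there, and the fold against a floor of 3 reads was 20.0, at a site where reads may have been counted several times. At chromosome 18, 81908691 to 81910199, LatA + IL-4 had a signal of 0.683 (10 reads), DMSO + IL-4 had 10.1 (126 reads) and the other 4 had 4.55 to 6.36.

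**Figure D3:**
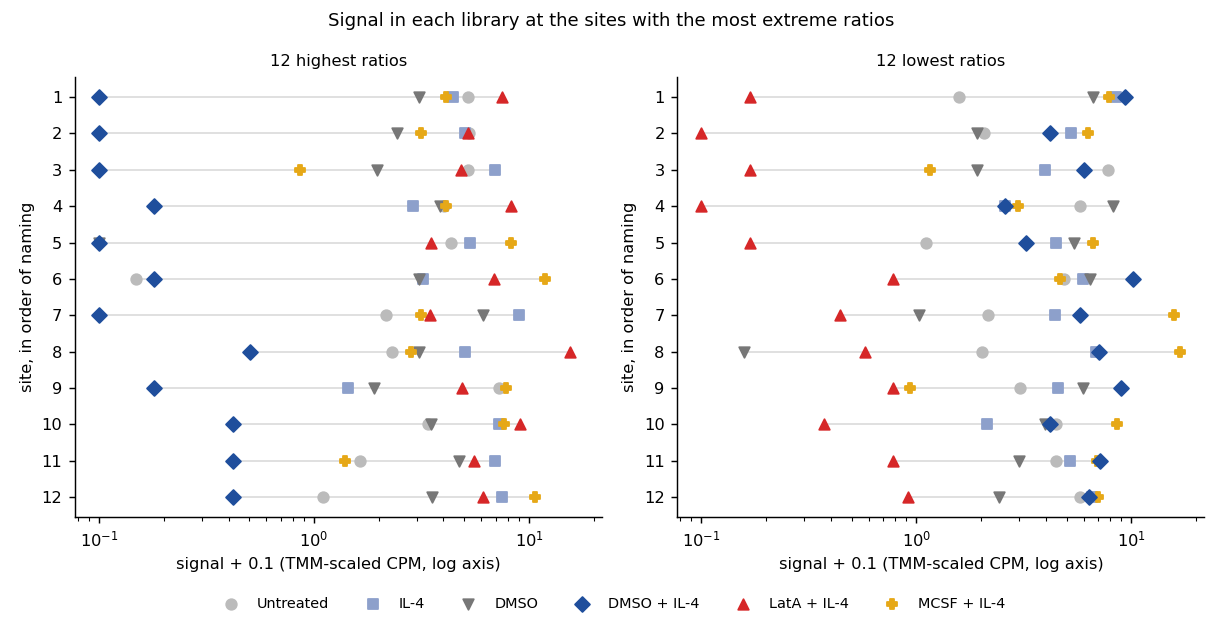
Each row is a site and each symbol the signal of 1 library plus 0.1 (TMM-scaled CPM, log axis), for the 12 highest (left) and 12 lowest (right) ratios of LatA + IL-4 over DMSO + IL-4 with the trend removed. On the left the control is the lowest or near the lowest symbol while LatA + IL-4 lies among or above the others, and on the right LatA + IL-4 is the lowest symbol at 11 of the 12 sites.

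Read numbers at these extreme sites were often at or next to a multiple of 10. The aligner was set to report up to 10 positions for a read, so a read from a repeat can be counted up to 10 times in a site. Whether that happened at these sites was not tested. At chromosome 1, 134245578 to 134246416, the 6 libraries held 41, 81, 31, 51, 0 and 82 reads. Within 1 read of a multiple of 10 were 50% of the values at the 12 highest sites and 59.7% at the 12 lowest, against 30.6% over all sites compared and 30.1% at sites of 12 units per kb and over. For the 74 sites at least 4-fold higher and the 169 at least 4-fold lower, the shares were 40.5% and 40.3%. Since 0 and 1 count as near a multiple of 10 and the sites were picked for values near 0, the shares were also taken, after the values were seen, over read numbers of at least 2. They were then 41.9% (26 of 62 values) at the 12 highest sites, 56.1% (37 of 66) at the 12 lowest, 39.0% and 39.7% at the sites 4-fold higher and lower, and 30.6% over all sites. Counting intervals are too narrow where a read was counted several times.

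Sites with more reads gave smaller ratios. Among sites with a mean signal of 10 or more, the lowest ratio was at chromosome 14, 17281122 to 17281696. Its signal was 5.74 in LatA + IL-4, 25.5 in DMSO + IL-4, 12.9 in MCSF + IL-4, 13.8 in IL-4, 7.0 in DMSO and 10.6 in Untreated, a ratio of control to latrunculin A of 4.44 (3.48 to 5.72). Here the control was the highest library and LatA + IL-4 the lowest. At chromosome 1, 63676243 to 63677593, signal was 16.6 in DMSO + IL-4, 13.4 in DMSO, 12.9 in IL-4 and 11.4 in Untreated. LatA + IL-4, at 4.03, and MCSF + IL-4, at 4.48, both lay below all 4 other libraries. The same order was seen at chromosome 17, 68416893 to 68417075, with 4.10 in LatA + IL-4, 5.99 in MCSF + IL-4 and 8.90 to 15.1 in the other 4. The control was 4.12-fold (3.07 to 5.60) and 3.68-fold (2.74 to 5.00) above LatA + IL-4 at these sites.

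The highest ratios at this signal were at chromosome 8, 26371301 to 26372442, at chromosome 12, 36201789 to 36203733, and at chromosome 2, 155068532 to 155069677. They were 7.51 (5.33 to 10.9), 6.82 (5.14 to 9.19) and 6.53 (4.53 to 9.70). At the chromosome 8 site the signal was 22.3 in LatA + IL-4, 2.97 in the control and 6.30 to 11.9 in the other 4, so both compared libraries lay outside the others. Against the IL-4 library the log2 ratio, with the trend removed, was 0.16 at the chromosome 8 site and 0.02 at the chromosome 2 site, and only the chromosome 12 site stayed past 1.5-fold. The adjusted p of an edgeR fit described below was 0.475, 0.00398 and 0.533 in the order given. At the chromosome 12 site the signal was 30.1 in LatA + IL-4, 12.7 in MCSF + IL-4 and 4.41 to 7.19 in the other 4, so LatA + IL-4 was the highest library. At the chromosome 2 site MCSF + IL-4, at 21.3, was above LatA + IL-4, at 17.3, and the control was the lowest of the 6. Among sites of 1500 bp or more, the highest ratio was at chromosome 2, 157940454 to 157942503, where the signal was 15.5 in LatA + IL-4 and 1.28 to 2.33 in the other 5. The lowest not already among the 12 was at chromosome 4, 106357579 to 106359466, with 0.683 in LatA + IL-4 and 2.97 to 8.14 in the other 5.

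A further rule, added after the values were seen, asked for sites where LatA + IL-4 lay at least 1.5-fold above, or below, each of the other 5 libraries with the trend removed. It found 276 sites above (0.824%) and 853 below (2.55%). Of the 853 below, 62.5% were sparse, against 7.25% of the 276 above. At the 2983 sites higher than the control, LatA + IL-4 had the highest signal of the 6 libraries in 82.6%, and at the 4851 lower sites it had the lowest in 46.3%. For all sites the shares were 52.1% and 7.47%. These ranks use the signal itself, and the sites were called by a high or low value of LatA + IL-4 relative to its control. The shares are therefore partly set by the selection and are no support for the calls.

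The sites with a mean signal of 10 or more where LatA + IL-4 lay farthest above all other libraries had 341 to 4292 reads in it. At chromosome 2, 156991021 to 156992171, the signal was 92.4 in LatA + IL-4, 25.8 in DMSO + IL-4, 26.7 in MCSF + IL-4, 25.9 in IL-4, 24.1 in DMSO and 17.1 in Untreated. The signal in LatA + IL-4 stands for 1353 reads, and the ratio to the control was 3.58 (3.17 to 4.06). The other 5 libraries lay close together. At chromosome 4, 98867498 to 98868169, the signal was 38.3 in LatA + IL-4 and 5.98 to 14.6 in the other 5, a ratio of 3.49 (2.89 to 4.24) to the control. At chromosome 10, 4846141 to 4846582, it was 38 in LatA + IL-4 and 9.10 to 12.8 in the other 5.

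At chromosome 6, 122565721 to 122566199, the signal was 293 in LatA + IL-4, 138 in DMSO + IL-4, 126 in MCSF + IL-4, 130 in IL-4, 96.2 in DMSO and 68.4 in Untreated. The 3 other libraries with IL-4 were above those without it at this site, and LatA + IL-4 was 2.12-fold (2.00 to 2.24) above its control. A site on chromosome 8, 27079885 to 27080538, had a signal of 128 in LatA + IL-4 and 26.9 to 55.0 in the other 5. The remaining 3 of the 8 sites named by this rule had ratios to the control of 2.98 to 3.18.

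Below all other libraries, the 8 named sites had log2 ratios of -1.02 to -1.95 with the trend removed, beside 0.98 to 1.42 for the 8 above. At chromosome 6, 135274107 to 135274557, the signal was 12.4 in LatA + IL-4, 30.9 in DMSO + IL-4, 29.6 in MCSF + IL-4, 35.9 in IL-4, 33.4 in DMSO and 40.7 in Untreated, with the control 2.49-fold (2.08 to 2.99) higher. At chromosome 16, 60947226 to 60948471, it was 5.05 in LatA + IL-4 and 9.92 to 13.6 in the other 5, with the control 2.60-fold (1.97 to 3.47) higher. MCSF + IL-4 had 29.6 and 12.2 at these sites, next to 30.9 and 13.1 in the control. Against IL-4, the library it is paired with, its log2 ratios with the trend removed were -0.74 and -0.30. In that pair MCSF + IL-4 was at least 1.5-fold lower at 5 of the 8 sites. At the other 6 sites the control was 1.39-fold to 2.15-fold higher, and at 2 of these it was less than 1.5-fold higher before the trend was removed.

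**Figure D4:**
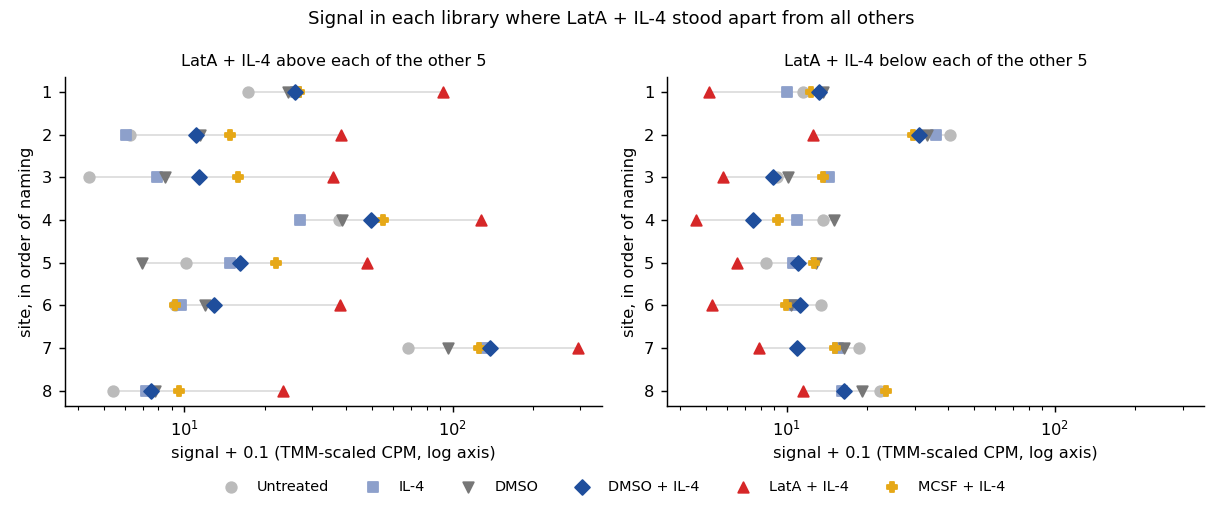
Each row is a site of mean signal 10 or more and each symbol the signal of 1 library plus 0.1 (TMM-scaled CPM, log axis), for the 8 sites where LatA + IL-4 lay farthest above (left) or below (right) each of the other 5 libraries with the trend removed. LatA + IL-4 is the highest symbol in every row on the left and the lowest in every row on the right.

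Because the reads could be recovered, a count model was also fitted with edgeR to all 578591 sites, with IL-4, latrunculin A and MCSF as terms and the vehicle taken to have no effect. This choice was made after the values were seen. It leaves 2 residual degrees of freedom, which come from libraries with and without DMSO, and it assumes that the single latrunculin A library varies as they do. At an adjusted p under 0.05 (edgeR's quasi-likelihood test, Benjamini-Hochberg over all sites) it called 176 of the 33476 sites higher (0.526%) and 665 lower (1.99%) with latrunculin A, and 8348 passed an unadjusted p of 0.05. Over all 578591 sites the shares were 0.166% higher and 0.208% lower.

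All sites named here were picked with the same latrunculin A library that the fit uses, so their p-values describe them and are no separate support. Where only DMSO + IL-4 was near 0, the fit also weighs IL-4 without vehicle, so a high ratio to the control need not pass. None of the 12 highest sites passed the threshold in this edgeR fit, where their adjusted p ranged from 0.199 to 1, and all 12 of the lowest did, from 0.00022 to 0.033. All 8 sites above and all 8 below every other library passed too, and these were picked with the same libraries as well. The adjusted edgeR p was 0.00012 at chromosome 2, 156991021 to 156992171, and 0.00025 at chromosome 6, 122565721 to 122566199. It was 0.00011 at chromosome 1, 63676243 to 63677593. Of the 2983 sites higher by the ratio, 5.10% passed the fit, and of the 4851 lower ones 13.5% did. Of the 112 sites with the most signal, 64 passed, 33 higher and 31 lower. These directions are relative to offsets that the same sites draw, and in the signal itself 14 of the 112 were at least 1.5-fold higher, all in the chromosome 6 runs.

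Ratios of neighbouring sites were alike at short distance. For sites less than 1 kb apart the Pearson correlation of the log2 ratios, with the trend removed, was 0.59 over 2026 pairs. It was 0.30 at 1 to 5 kb, 0.16 at 5 to 20 kb and 0.13 at 100 kb or more. The matching values for DMSO against Untreated were 0.25, 0.08, 0.05 and 0.05, and for MCSF + IL-4 against IL-4 0.49, 0.31, 0.19 and 0.13. These are descriptions across sites, which share libraries and are not replicates, and reads counted at several positions can enter both sites of a pair.

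Runs of successive sites called the same way, each within 5 kb of the next, held 11.1% of the lower sites and 6.97% of the higher ones. The longest was a run of 22 lower sites on chromosome 8, from 57974871 to 57999388, with a median of 0.502 of the control signal in LatA + IL-4. In MCSF + IL-4 the median was 0.622 of that in IL-4, and in DMSO it was 0.865 of that in Untreated. A run of 19 lower sites lay on chromosome 7, from 67012097 to 67032336, with a median of 0.493 of the control, beside 0.674 in the MCSF pair and 0.783 in DMSO over Untreated. These sites were narrow, with median widths of 297.5 bp and 270 bp, and dense, at 16.6 and 18.9 units per kb. Their density was above the median of 3.81 over all lower sites.

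The only higher runs of 5 or more sites were a pair on chromosome 6 of 8 sites each, from 47604767 to 47636200 and from 47689638 to 47722550. The sites of the first run were spaced evenly, with steps of 4253 to 4436 bp, and those of the second less so, with steps of 4267 to 5371 bp and a median of 4376 bp. In the first run the signal was 343 to 381 in LatA + IL-4 and 159 to 178 in DMSO + IL-4. It was 179 to 207 in Untreated, 139 to 160 in IL-4, 224 to 258 in DMSO and 244 to 275 in MCSF + IL-4. LatA + IL-4 was above its control by 2.07-fold to 2.16-fold at every site of the first run and by 2.14-fold to 2.28-fold in the second. Over both runs MCSF + IL-4 was 1.62-fold to 1.79-fold above IL-4, and DMSO was 1.23-fold to 1.3-fold above Untreated. The 3 libraries with the highest signal were LatA + IL-4, MCSF + IL-4 and DMSO. A read that aligns to several such sites can be counted at each, so the 16 sites are not 16 separate observations.

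**Figure D5:**
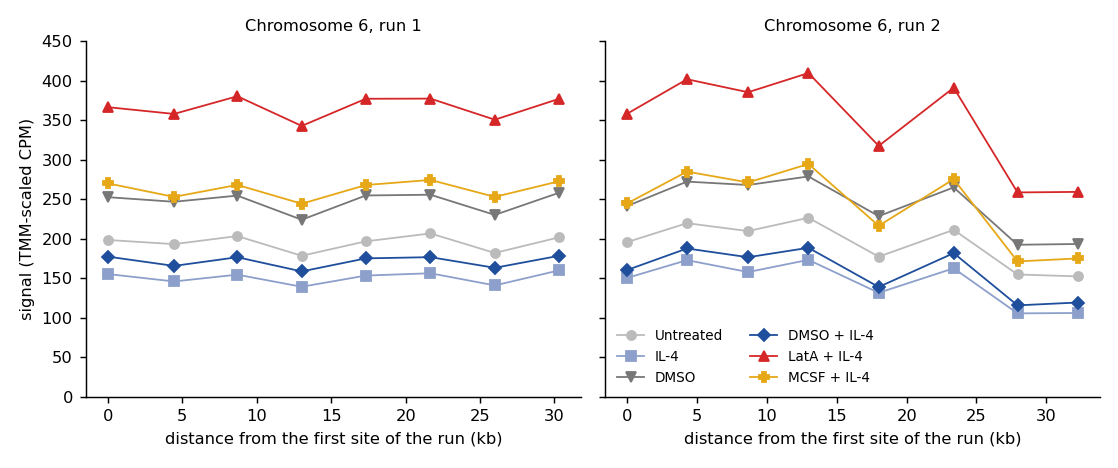
Signal (TMM-scaled CPM) at the 8 sites of each chromosome 6 run is plotted against distance from the first site of the run (kb), with 1 line per library. LatA + IL-4 is above the other 5 libraries at all sites. The profiles of the 6 libraries have a like shape, but the MCSF + IL-4 and DMSO lines cross in the second run.

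Over windows of 1 Mb with at least 10 sites, 10 of 1408 windows had a median ratio of 1.5-fold or more downward and 2 upward. In DMSO against Untreated the numbers were 1 and 0, and in MCSF + IL-4 against IL-4 they were 19 and 1. The lowest windows began at 57000001 on chromosome 8 and at 67000001 and 66000001 on chromosome 7, with median log2 ratios of -1.46, -1.42 and -1.32. They were low in pairs without latrunculin A too, with -1.23, -1.15 and -1.03 for MCSF + IL-4 against IL-4 and -0.55, -0.61 and -0.46 for DMSO against Untreated. The first of these windows held the run on chromosome 8 described above, and all 23 of its sites were lower. The highest began at 136000001 on chromosome 4, at 6000001 on chromosome 17 and at 137000001 on chromosome 5, with 0.66, 0.60 and 0.52. In the window on chromosome 17, 23 of 42 sites were higher and none lower, and its median log2 ratio was 0.13 for MCSF and 0.05 for DMSO against Untreated. In the window on chromosome 4, 7 of 11 sites were higher, with medians of 0.04 and 0.07 in those comparisons. By whole chromosome, the share of lower sites ran from 11.0% on chromosome 19 to 18.3% on chromosome 14, and that of higher sites from 6.95% on chromosome 14 to 12.6% on chromosome 17.

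Sites that differed with latrunculin A often differed the same way with MCSF, in a pair of libraries that shares none with this one. Of the 4851 sites lower with latrunculin A, 2490 (51.3%, 49.9 to 52.7) were lower in MCSF + IL-4 than in IL-4, against 15.7% of all sites, and 290 (5.98%) were higher. Of the 2983 higher sites, 708 (23.7%, 22.2 to 25.3) were higher with MCSF, against 10.9% of all sites, and 302 (10.1%) were lower. Among sites of 4 units per kb and over, 44.5% of the lower sites were lower with MCSF, against 10.0% of all such sites, and 23.1% of the higher ones were higher, against 11.8%. DMSO against Untreated moved with these groups too, so the overlap was not particular to MCSF. Of the sites lower with latrunculin A, 20.2% were lower in DMSO than in Untreated, against 5.87% of all sites. Of the higher ones, 8.55% were higher, against 3.56%. Among sites of 4 units per kb and over, these shares were 18.4%, against 3.69%, and 7.77%, against 3.59%. Beyond the split at 4 units per kb, the part of density in this overlap was not tested.

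For the IL-4 response, sites were sorted by the IL-4 library against Untreated, which uses neither of the compared libraries. In that pair 16.4% of the sites were higher and 10.4% lower with IL-4. Of the 5477 sites at least 1.5-fold higher with IL-4, 12.4% (11.6 to 13.3) were lower with latrunculin A, beside 14.5% of all sites, and 9.48% (8.71 to 10.3) were higher. The order turned among sites of 4 units per kb and over, where 11.4% (10.5 to 12.3) of the IL-4-induced sites and 8.12% (7.81 to 8.44) of all sites were lower. At the 424 sites at least 4-fold higher with IL-4, 23.3% (19.4 to 27.7) were lower and 10.6% (7.85 to 13.9) higher. Their median log2 ratio in the signal itself was 0.28 (0.23 to 0.34), below the 0.54 of all sites. Among the denser sites of this kind 23.1% (19 to 27.5) were lower. The 25 sparse ones were 28% (12.1 to 49.4) lower and 44% (24.4 to 65.1) higher. The median of the whole 1.5-fold group was 0.47 (0.45 to 0.48). Of the 59 sites at least 4-fold lower with IL-4, 28.8% (17.8 to 42.1) were lower with latrunculin A and 27.1% (16.4 to 40.3) higher. The 29 denser ones of these were 13.8% (3.89 to 31.7) lower and 37.9% (20.7 to 57.7) higher, and the 30 sparse ones were 43.3% (25.5 to 62.6) lower, beside 51.0% of all sparse sites.

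At sites 1.5-fold lower with IL-4, both shares were above those of all sites, with 15.7% (14.5 to 17.0) higher and 19.2% (17.9 to 20.6) lower. Among the 2705 denser ones, 17.3% (15.9 to 18.8) were higher with latrunculin A, against 9.52% of all denser sites, and 9.80% (8.70 to 11.0) were lower, beside 8.12%. The 775 sparse ones were 52.1% (48.5 to 55.7) lower, beside 51.0% of all sparse sites, so the raised lower share was mostly not seen within a density class. For the denser ones the median log2 ratio with the trend removed was 0.23.

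With no split by density, a 2-fold lower signal was about as frequent at sites 2-fold higher with IL-4 as over all sites. Of the 2374 sites at least 2-fold higher with IL-4, 139 (5.86%) were at least 2-fold lower with latrunculin A, beside 5.95% of all sites, and 95 (4.0%) were at least 2-fold higher, beside 1.99%. Sites of 4 units per kb and over made up 108 of the 139, and 47.7% of all 1.5-fold lower calls. Of the 139, 43 were lower with MCSF as well, 25 were higher and 71 lay within 1.5-fold. Over all sites 15.7% were lower and 10.9% higher with MCSF. The clearest case by reads, chosen after its values were seen, was at chromosome 2, 5239533 to 5240416. Its signal was 3.55 in Untreated, 3.03 in DMSO, 11.8 in IL-4, 14.6 in DMSO + IL-4, 20.6 in MCSF + IL-4 and 2.19 in LatA + IL-4. The 3 other IL-4 libraries lay above both libraries without IL-4, and LatA + IL-4 lay below all of them. The control was 6.68-fold (4.57 to 10.0) above LatA + IL-4, and the adjusted p of the edgeR fit was 7.94e-05, which is no separate support since the site was picked with the same latrunculin A library. At chromosome 2, 60238833 to 60239712, the signal was 1.29 in Untreated, 2.45 in DMSO, 11.1 in IL-4, 4.65 in DMSO + IL-4, 4.32 in MCSF + IL-4 and 0.820 in LatA + IL-4. The IL-4 library stood far above the others there, and the vehicle control lay nearer to MCSF + IL-4.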

How the data were processed

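ATAC-seq libraries of BMDMs, 1 for each of 6 groups, were sequenced as paired 38-base reads. Per the study's methods, the authors trimmed reads with Cutadapt, aligned them to mm9 with Bowtie2 (up to 10 alignments reported per read), removed duplicates with Picard and discarded blacklisted and mitochondrial reads. Peaks were called with macs2 at a q-value of 0.05, and reads in sites were counted with featureCounts. Tool versions are not given in the sources used here.

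The deposited site table holds a signal, which the authors made as CPM scaled by edgeR's TMM factors. Within a library all values were whole multiples of its smallest one (100%, tolerance 0.001 reads), which gave back whole reads. The deposited peak lists give a fold enrichment (a ratio to local background) and a −log10 q-value per peak. A peak that overlapped a site by 1 base counted as its peak. No per-sample column was left out, and the peak lists of the other 4 libraries were not used here.

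Log2 ratios were taken after adding 0.1 to each signal. The trend was a lowess curve (fraction 0.2, statsmodels 0.14.6) on log2 mean signal, and calls were made at 1.5-fold. With 1 library per group there is no test in the main comparison. Intervals of 95% are exact (Clopper-Pearson, conditional on both libraries' reads for ratios) and, as reads have no molecular identifiers, cover counting error only. Only for folds given against a floor was a count of 0 set to 3 reads. The ratios that ranked and called sites kept it at 0, with 0.1 added to the signal. The count fit (edgeR 4.0.16, R 4.3.3) used recovered reads with lowess offsets per library. The ratios, their intervals and the count fit were tested on simulated data. Those data had less spread between libraries than the fit found here, and no reads counted several times. The tests therefore do not cover these features.

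Sites were named by rank of the ratio: the 12 highest and 12 lowest with an interval excluding no change, 3 each way at a mean signal of 10 or more, 1 each way at 1500 bp or more, and 3 windows each way. A site within 10 kb of one already named was left out, which removed 3 sites as the lowest of 1500 bp or more and 1 from the sites above every other library. The members, lists and rules were chosen with earlier results of these data known. Lists of genes and motifs that needed an mm9 annotation were not run. The alternatives were other trends, pseudocounts, filters, thresholds, scales and controls.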

Additional observations from a re-analysis of the deposited data

How the results depend on the processing

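There were no replicates to leave out, so the spread between cultures is unknown, and depth limits sites near the minimum to about 40 reads in the control. No paired analysis was possible because each group has 1 library. Counts of higher and lower sites moved to 15361 and 1755 with no trend removal, 15867 and 16657 at a mean signal of at least 1.6, 497 and 1034 at 6.4, 137769 and 137235 with no filter, and 666 and 1991 at 2-fold. Lower minimums and no filter also changed the number of sites compared, to 90859 and 533249, and the upward share of calls to 48.8% and 50.1%. At 2-fold that share was 25.1%. Chosen after seeing the data, a trend within sites of at least 4 units per kb gave 1690 and 2913, and the edgeR fit gave 176 and 665. Other pseudocounts, scales, trends and the IL-4 control stayed within 1.5 times of the reported counts.

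Median log2 ratios at mean signals of 3.2 to 6.4, 6.4 to 20 and 20 to 200 became 0.47, 0.56 and 0.38 with total reads as the scale. With DESeq2 size factors the first and second became 0.53 and 0.61. With IL-4 as the control they became 0.63, 0.73 and 0.54, and -0.56 at 200 and over. With the trend taken on signal per kb instead of signal, the shares of higher and lower sites became 6.44% and 26.9% under 300 bp, 6.47% and 9.72% at 300 to under 600 bp, 6.59% and 8.88% at 600 to under 1000 bp, 9.36% and 11.1% at 1000 to under 1500 bp, and 10.8% and 17.3% at 1500 bp or more. The share of lower sites was then highest under 300 bp, and the share of higher sites was highest at 1500 bp or more. With peaks of −log10 q of at least 5, 10.8% of sites with both peaks were lower, sites with a LatA + IL-4 peak only were 27.1% higher and 14.9% lower, and those with a DMSO + IL-4 peak only were 0% higher and 91.4% lower. With windows of 500 kb, 5 windows were past 1.5-fold upward. The correlation of neighbours under 1 kb was 0.63 with no trend removal.

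Shares of all sites with no trend removal are not given here for MCSF or IL-4, so the next values have no background. The median log2 ratio of all sites was 0.55 for MCSF + IL-4 against IL-4. With no trend removal, sites higher with latrunculin A were 61.2% higher and 1.71% lower with MCSF, and 19.7% higher and 6.97% lower with IL-4. Sites lower with latrunculin A were 11.7% higher and 28.0% lower with MCSF, and 12.4% higher and 11.2% lower with IL-4. Against the IL-4 library, 7 of the 12 highest sites turned direction, with log2 ratios of -0.39 at 12:118245424, -0.92 at 19:55602846, -1.05 at 5:23641949, -1.95 at 18:38635997, -0.36 at 2:26387779, -0.74 at 6:7205962 and -0.97 at 17:8149144. The cause was not tested. No other named site changed direction under the alternatives run for it.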

Other observations

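Chromosomes X and Y, which are outside the autosomal sites, stood apart from them. At 1865 sites on chromosome X with a mean signal of at least 3.2, the median log2 ratio of LatA + IL-4 over DMSO + IL-4 was -0.14 (95% order-statistic interval -0.17 to -0.10), and at 108 sites on chromosome Y it was -0.43 (-0.54 to -0.37), against 0.54 on the autosomes. Against the autosomal trend, 50.1% (47.8 to 52.4) of the X sites were lower and 2.68% (2.00 to 3.52) higher. The median density was 8.93 units per kb on X and 8.07 on the autosomes, and 19.2% of the X sites were under 4 units per kb, against 14.8% of the autosomal ones. In MCSF + IL-4 against IL-4 the medians were -0.18 on X, -0.36 on Y and 0.55 on the autosomes. In DMSO against Untreated they were 0.02, -0.07 and 0.33. In DMSO + IL-4 against IL-4 they were 0.01, -0.01 and 0.12. The autosomes were thus above X and Y in all 4 pairs, most of all in the pairs with latrunculin A and MCSF. The cause was not tested.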
